A study of Mus musculus with 56 samples.

Results

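The comparison described here follows mouse CD4 T cells from 48 to 72 h after activation in cultures started at a high cell concentration. It rests on 6 of the 56 libraries of the study, picked out by their labels for concentration and time: 3 taken at 72 h and 3 taken at 48 h, all begun at 1000000 cells per ml. The study asks how the concentration of cells in a culture relates to the early formation of memory CD4 T cells. The 6 libraries belong to its second experiment, whose 38 libraries hold 13 groups of naive, activated and CD62L-sorted cells. Every group used here was made of splenic CD4 T cells from C57BL/6 mice, with no genetic change named in the labels, that were naive at the start. Except in the naive group, they were activated by beads coated with antibodies to CD3 and CD28, in complete RPMI medium without added cytokines. The activated cells were sorted as CD4 positive with no split by CD62L. The groups compared are the high concentration at 72 h (3 libraries) and at 48 h (3 libraries). They are set beside the low concentration of 62500 cells per ml at 72 h (2 libraries) and at 48 h (3 libraries). Some levels are also given for unactivated naive cells (3 libraries) and for both concentrations at 18 and 30 h (3 libraries each). Titles in this experiment end in a second number that no source used here explains. All 3 libraries at 72 h carry the number 1 and all 3 at 48 h the number 2, so whatever that number marks cannot be told apart from time within these 6 libraries. No source used here says whether the libraries of a group stem from different mice or from different wells. Each p-value therefore reflects the spread among libraries within groups, estimated over all 38 libraries of the experiment, and nothing wider.

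Signals through the antigen receptor and CD28 drive a naive T cell to enlarge, to make the growth factor IL-2 and respond to it through the transcription factor STAT5, and to divide many times. Dividing cells need helicase and polymerase genes for DNA replication, ribosome assembly, amino acids and chaperones. Quiescent T cells instead express FOXO and KLF2 target genes, among them receptors for homing to lymph nodes and for leaving them. Activated T cells also respond to interferons, which induce antiviral and antigen presentation genes.

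Library totals ran from 1085886 to 1313854 counts at 72 h and from 1182242 to 2067509 at 48 h. Ribosomal protein genes took 32.2 to 33.8% of the counts at 72 h and 28.8 to 29.2% at 48 h, and no mitochondrially encoded symbol is in the table. Levels below are counts per 1000000 (CPM) of a library's scaled size, its total over the genes tested times its TMM normalization factor. Differences are log2 values, 72 h minus 48 h, ± SE from one edgeR fit of all 38 libraries. A gene rose or fell where the adjusted p was under 0.05 over all 9239 genes tested. Of the CD4 T-cell identity list, 5 of 9 genes rose and 1 fell, where 11.5% of all genes tested rose and 12.0% fell. Cd4 had 699, 693 and 757 CPM at 72 h, against 282, 307 and 387 CPM at 48 h, which do not overlap (1.13 ± 0.14, adjusted p = 4.62e-08). Thy1, a surface protein of all T cells, had 1430, 1197 and 1323 CPM at 72 h, against 2194, 2145 and 1651 CPM at 48 h, and fell by 0.60 ± 0.14 on the log2 scale (adjusted p = 0.00141), a call that ended with the second title number as a term (-0.25). In bulk samples, fewer cells of a type and less RNA per cell cannot be told apart.

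Marker lists of other cell types were summed in each library. B-cell markers summed to 123 to 153 CPM at 72 h and 108 to 228 CPM at 48 h, with Cd79a, Ms4a1, Pax5 and Ebf1 at 0 in all 6 libraries. Of 6 B-cell markers tested 2 fell and 0 rose, where 12.0% of all genes tested fell and 11.5% rose. The 2 were Cd74, given below, and H2-Aa, a chain of MHC class II. H2-Aa had 1.56, 0 and 0.925 CPM at 72 h, against 57.9, 12.2 and 0.910 CPM at 48 h, which overlap, with high_48h replicate 1 far above the rest (-4.57 ± 1.64, adjusted p = 0.0458). That call ended without high_48h replicate 1 (-2.74), without any 1 of the 3 libraries at 72 h (-5.40 to -4.03) and with the second title number as a term (-2.81). CD8 and NK markers summed to 34.4 to 38.8 CPM at 72 h and 21.9 to 32.8 CPM at 48 h, with Klrb1c, Ncr1, Klrk1, Klra4 and Klra8 at 0. Red cell and platelet markers reached at most 5.48 CPM at 72 h and 1.22 CPM at 48 h. Myeloid and dendritic markers were higher, with sums of 167 to 195 CPM at 72 h against 68.8 to 111 CPM at 48 h, while Cd14, Itgax, Flt3 and Mpeg1 were at 0 in all 6. Most of these sums was Ctss, the protease cathepsin S, with 175, 161 and 164 CPM at 72 h, against 62.1, 105 and 92.9 CPM at 48 h (0.93 ± 0.18, adjusted p = 9.78e-05), and 411 ± 46.8 CPM in naive CD4 T cells (SD, n = 3). Of that list, Csf1r, the receptor for macrophage colony-stimulating factor, had 10, 1 and 9 counts at 72 h and 0 in each library at 48 h, at least 9.53-fold higher when the 48 h libraries together are set to a floor of 3 counts. It passed in the fit (adjusted p = 0.0153), and did not without high_72h replicate 1, high_72h replicate 3 or high_48h replicate 3, nor with the second title number as a term (fitted log2 differences of 5.90, 5.88, 6.20 and 0.84). The part of these cells in the changes below was not tested.

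Between 48 and 72 h, 2170 genes passed (23.5%): 1060 rose (11.5%) and 1110 fell (12.0%). At least 2-fold, 546 rose (5.91%) and 374 fell (4.05%). The 3 libraries at 72 h all lay above the 3 at 48 h for 1663 genes (18.0%) and all below for 1557 genes (16.9%). The median difference over all genes tested was 0.01. With the second title number as a term, 1277 genes passed (13.8%), 605 higher and 672 lower. That term itself passed for 45 genes (0.487%), a test chosen after the data were seen. The term is estimated only from groups that hold both numbers. These are the low concentration at 48 h, CD62L negative cells at 48 and 72 h, and CD62L positive cells at 72 h. The CD62L-sorted cultures began at 250000 cells per ml. Within the 6 libraries compared the term cannot be checked. A call kept or lost with it therefore rests on those other cells.

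**Figure D1:**
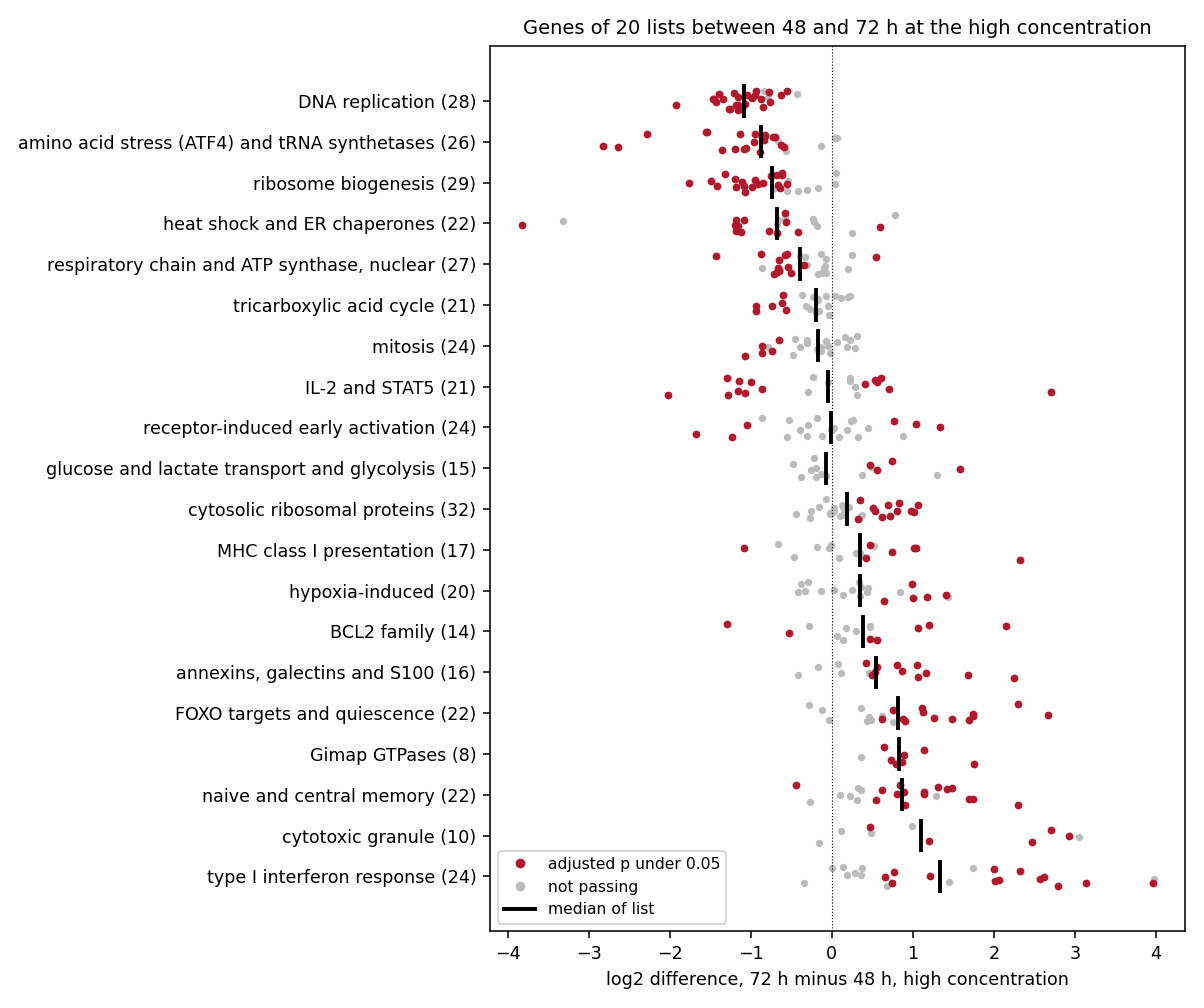
Log2 difference between 72 and 48 h at the high concentration (x axis) for the tested genes of 20 lists (number of genes in brackets). Each point is a gene, red where the adjusted p was under 0.05 and grey where it was not, and a black bar is the list's median. DNA replication lies furthest left with a median of -1.09 and the type I interferon response furthest right with 1.33.

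The 8 largest rises among well-expressed genes whose groups do not overlap were in genes of varied roles. Pik3ip1, an inhibitor of PI3 kinase that resting T cells express, had 167, 208 and 177 CPM at 72 h, against 32.7, 20.7 and 33.2 CPM at 48 h (2.67 ± 0.21, adjusted p = 1.42e-13). Gsn, which severs actin filaments, had 56.3, 71.4 and 62.0 CPM at 72 h, against 24.4, 9.72 and 5.46 CPM at 48 h (2.37 ± 0.39, adjusted p = 1.06e-05). In both genes every library at 72 h lay above every library at 48 h, which the rule of choice required. Rises of 2.33 ± 0.25 for Irf7, 2.33 ± 0.23 for H2-T23 and 2.29 ± 0.23 for S1pr1 are taken up with their lists. S100a6, a calcium-binding protein gene, rose by 2.25 ± 0.22, Smpdl3a, a phosphodiesterase gene, by 2.16 ± 0.32, and Pdlim4, a gene of an actin-associated adaptor, by 2.06 ± 0.19.

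The 8 largest falls by the same rule were also in genes of varied roles, and those of Asns and Nop56 are taken up with their lists. Lta, which encodes the cytokine lymphotoxin alpha, had 329, 355 and 306 CPM at 72 h, against 1328, 1427 and 1255 CPM at 48 h (-2.02 ± 0.14, adjusted p = 3.60e-15). The level at 72 h was 4.05-fold lower with little spread between libraries. Nup93, of the nuclear pore, fell by 1.90 ± 0.27 on the log2 scale, Rcc1, the exchange factor of the nuclear transport GTPase Ran, by 1.74 ± 0.26, and Snrpd1, a core protein of the splicing snRNPs, by 1.72 ± 0.22. Hmgn2, a nucleosome-binding protein gene, had 7.04, 9.47 and 9.25 CPM at 72 h, against 102, 85.7 and 106 CPM at 48 h (-3.51 ± 0.28, adjusted p = 1.42e-13). Its value is uncertain because near-identical copies in the genome can share its reads. Rpph1, the RNA of RNase P, fell by 2.79 ± 0.27 on the log2 scale, and its capture by poly-T primers is also uncertain.

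Genes of DNA replication fell almost as a whole list. Of 28 genes tested 25 fell and 0 rose (12.0% of all genes fell), with differences from -1.92 to -0.43 and a median of -1.09. Summed over the list, the libraries held 2317 to 2548 CPM at 72 h against 4876 to 5097 CPM at 48 h. Mcm5, a subunit of the replicative helicase, had 124, 163 and 169 CPM at 72 h, against 364, 371 and 366 CPM at 48 h (-1.27 ± 0.16, adjusted p = 3.72e-08). All libraries at 72 h lay far below those at 48 h, in a gene chosen by its small adjusted p. Fen1, the nuclease that trims Okazaki fragments, had 69.6, 62.0 and 73.1 CPM at 72 h, against 173, 191 and 173 CPM at 48 h (-1.39 ± 0.15, adjusted p = 6.17e-10). Rrm1, the large subunit of ribonucleotide reductase, which makes deoxynucleotides, fell by 1.26 ± 0.15 on the log2 scale. Of the 28, 23 fell at a median of -1.05 with the second title number as a term.

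The start-site windows of these genes were searched for the motif TTTNNCGC, on both strands, the core recognised by the E2F factors that act on cell-cycle genes. RefSeq gave a window (250 bases before to 50 after the start, GRCm38.p6) for 23 of the 28 genes, and 11 held the motif (47.8%), against 5.27% of all 27025 windows and 9.51% of the 7098 windows of genes tested here. The 250 bases before the start of Mcm5 are shown because the gene stands for the list and holds 2 overlapping matches, 1 on each strand, in capitals (chr8:75109259-75109508, + strand). Mcm5 and the other shown windows were picked after values were seen, and a match is a description of letters only.
Mcm5: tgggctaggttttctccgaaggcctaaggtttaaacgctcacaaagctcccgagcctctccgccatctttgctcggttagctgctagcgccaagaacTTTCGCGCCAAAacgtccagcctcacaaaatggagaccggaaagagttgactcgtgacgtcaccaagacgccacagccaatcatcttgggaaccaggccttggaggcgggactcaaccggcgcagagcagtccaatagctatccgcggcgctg

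Of 24 mitosis genes tested 5 fell and 0 rose (11.5% of all genes rose and 12.0% fell), with a median of -0.17. With the second title number as a term 3 fell. Plk1, a kinase of mitotic entry, had 115, 90.4 and 99.0 CPM at 72 h, against 286, 190 and 167 CPM at 48 h (-1.07 ± 0.21, adjusted p = 0.000170). Birc5, survivin of the chromosomal passenger complex, fell by 0.74 ± 0.14 on the log2 scale (adjusted p = 6.55e-05). Mki67, a marker of cycling cells, had 203, 145 and 172 CPM at 72 h, against 155, 136 and 299 CPM at 48 h, which overlap (-0.19 ± 0.26, adjusted p = 0.641). Of 16 G1 cyclin and inhibitor genes 4 rose and 5 fell (0 and 3 with that term). Without high_72h replicate 3 there was 1 rise, and without high_72h replicate 2 or any 1 library at 48 h there were 2. Ccne1, cyclin E1 of S-phase entry, had 53.2, 37.9 and 36.1 CPM at 72 h, against 123, 75.9 and 65.1 CPM at 48 h (-1.02 ± 0.24, adjusted p = 0.00136). Ccnd3, cyclin D3, had 620, 522 and 637 CPM at 72 h, against 1320, 1092 and 827 CPM at 48 h (-0.86 ± 0.18, adjusted p = 0.000315), and no longer passed with the second title number as a term (-0.54).

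Genes that build ribosomes fell, while none of the tested genes of the ribosome's own proteins passed as lower. Of the latter, 1 did without high_48h replicate 3, without the low-count filter or with the second title number as a term. Of 29 ribosome biogenesis genes 21 fell and 0 rose (median -0.73, where 12.0% of all genes fell). Every library at 72 h lay below every library at 48 h for 23 of the 29 (16.9% of all genes). Nop56, of the nucleolar complex that methylates ribosomal RNA, had 80.6, 74.0 and 63.8 CPM at 72 h, against 320, 207 and 220 CPM at 48 h (-1.76 ± 0.18, adjusted p = 1.08e-10). Nop2, a nucleolar RNA methyltransferase gene, fell by 1.42 ± 0.18 on the log2 scale, and Srm, spermidine synthase, by 1.20 ± 0.16. Srm is counted in the list although it is an enzyme of polyamine synthesis. With the second title number as a term 13 of the 29 passed, at a median of -0.77. Of 32 cytosolic ribosomal protein genes 12 rose and 0 fell (11.5% of all genes rose), with a median of 0.19. The median was 0.16 when library sizes were computed without these genes, with 11 rises. Rps16 had 2680, 1892 and 2558 CPM at 72 h, against 999, 1162 and 1252 CPM at 48 h (1.06 ± 0.16, adjusted p = 1.21e-06). Rps14 rose by 1.01 ± 0.13. Ribosomal protein genes have many near-identical copies that can share reads, so values of single genes are uncertain.

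Genes of amino acid supply and tRNA charging fell as well (12.0% of all genes fell). Of 26 tested genes of the ATF4 response and tRNA synthetases, which answer and relieve shortage of amino acids, 21 fell and 0 rose (median -0.87). Asns, asparagine synthetase, had 18.8, 13.8 and 10.2 CPM at 72 h, against 49.5, 82.6 and 76.0 CPM at 48 h (-2.28 ± 0.31, adjusted p = 1.52e-07). Mars, the methionine tRNA synthetase, had 59.5, 66.3 and 67.5 CPM at 72 h, against 224, 184 and 160 CPM at 48 h (-1.55 ± 0.17, adjusted p = 7.29e-10). Gars, the glycine tRNA synthetase, had 155, 179 and 162 CPM at 72 h, against 398, 344 and 390 CPM at 48 h (-1.19 ± 0.13, adjusted p = 2.07e-09). In all 3 genes, chosen as those of the list with the smallest adjusted p, the groups lie apart. With the second title number as a term 13 of the 26 fell, at a median of -0.88. The motif TGATGNAA, on both strands, to which ATF4 binds together with C/EBP factors, was in the windows of 7 of 22 list genes with a RefSeq window (31.8%), against 4.06% of all windows and 2.13% of those of tested genes. The 250 bases before the start of Asns hold 1 match, in capitals, and are shown as the gene with the largest fall of the named members (chr6:7693210-7693459, - strand).
Asns: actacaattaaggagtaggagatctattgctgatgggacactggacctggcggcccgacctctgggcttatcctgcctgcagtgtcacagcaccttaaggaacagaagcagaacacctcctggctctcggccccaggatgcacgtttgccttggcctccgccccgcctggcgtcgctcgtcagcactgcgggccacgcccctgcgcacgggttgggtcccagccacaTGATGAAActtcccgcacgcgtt

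Of 22 heat shock and ER chaperone genes 12 fell and 1 rose (median -0.67, where 12.0% of all genes fell and 11.5% rose). There were 0 rises on leaving out any 1 library but high_48h replicate 3, and with the second title number as a term. Calr, calreticulin, a chaperone of the ER that also loads MHC class I, had 289, 294 and 328 CPM at 72 h, against 687, 597 and 641 CPM at 48 h (-1.08 ± 0.14, adjusted p = 7.18e-08). Hspd1, the mitochondrial chaperonin, fell by 1.19 ± 0.15 on the log2 scale, and Xbp1, a transcription factor of the unfolded protein response, by 1.12 ± 0.16. Of 27 nuclear genes of the respiratory chain and ATP synthase 12 fell and 1 rose (median -0.40), and 6 fell with the second title number as a term. Ndufa5, of complex I, had 80.6, 62.0 and 80.5 CPM at 72 h, against 222, 185 and 193 CPM at 48 h (-1.42 ± 0.21, adjusted p = 7.67e-07), and Atp5b, the catalytic subunit of ATP synthase, fell by 0.87 ± 0.12 on the log2 scale. Of 21 genes of the tricarboxylic acid cycle 6 fell and 0 rose (median -0.19). They include Sdhb, of succinate dehydrogenase (-0.93 ± 0.13, adjusted p = 1.99e-07).

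Genes of IL-2 signalling changed in both directions (11.5% of all genes rose and 12.0% fell). Of 21 tested genes of IL-2 signalling 8 fell and 6 rose, with a median of -0.05. Il2ra, the alpha chain that gives the receptor high affinity, had 177, 158 and 193 CPM at 72 h, against 320, 322 and 409 CPM at 48 h (-0.995 ± 0.196, adjusted p = 0.000135). Il2rb, the beta chain, had 153, 222 and 193 CPM at 72 h, against 435, 441 and 319 CPM at 48 h (-1.07 ± 0.18, adjusted p = 1.30e-05). Il2rg, the gamma chain that other cytokine receptors share, had 793, 968 and 872 CPM at 72 h, against 499.6, 640 and 679 CPM at 48 h (0.53 ± 0.14, adjusted p = 0.00489), a call that ended without high_48h replicate 1 (0.41) and with the second title number as a term (0.31). The alpha and beta chains were lower in every library at 72 h and the gamma chain higher. Socs2, a STAT5-induced feedback inhibitor of cytokine signalling, had 277, 284 and 261 CPM at 72 h, against 757, 609 and 635 CPM at 48 h (-1.28 ± 0.14, adjusted p = 1.64e-09). Cish, another such inhibitor, had 272, 344 and 266 CPM at 72 h, against 761.5, 682 and 513 CPM at 48 h (-1.15 ± 0.18, adjusted p = 4.34e-06). Cish, Il2rb and Il2rg were named after their values were seen. The related Socs1 and Socs3 did not pass (-0.29 and 0.31). Pim2, a survival kinase gene induced by cytokines, fell by 1.15 ± 0.15 on the log2 scale. The ligand gene Il2 had 18.0, 18.9 and 14.8 CPM at 72 h, against 5.88, 16.4 and 19.6 CPM at 48 h, which overlap (0.22 ± 0.35, adjusted p = 0.701). The list had 7 falls and 1 rise with the second title number as a term.

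The motif TTCNNNGAA, the palindrome that STAT factors bind (its reverse complement is the same letters), was in the windows of 4 of 17 list genes with a RefSeq window (23.5%), against 8.47% of all windows and 6.78% of those of tested genes. Cish holds 2 copies in capitals, just after the start. They are shown in the 30 bases from 5 before the start to base 25 after it (GRCm38.p6, chr9:107296654-107296683, + strand), as a feedback gene whose change had opposite signs at the 2 concentrations.
Cish: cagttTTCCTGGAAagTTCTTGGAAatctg

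**Figure D2:**
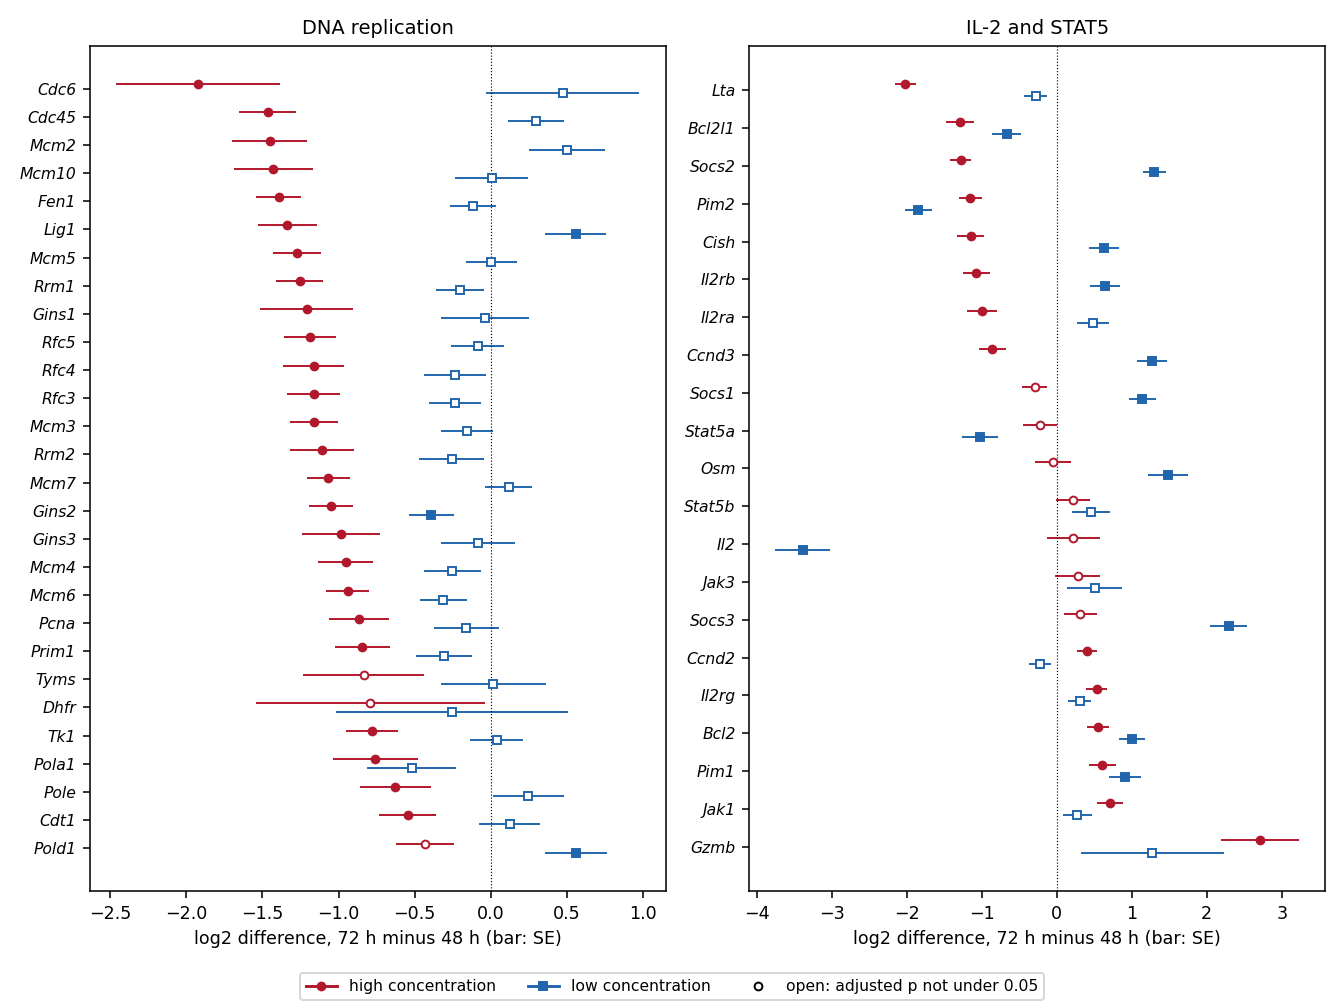
Log2 difference between 72 and 48 h (x axis, bars are SE) for each tested gene of the DNA replication list (left) and the IL-2 and STAT5 list (right), at the high concentration (red circles) and the low concentration (blue squares). Filled symbols passed at an adjusted p under 0.05. At the high concentration 25 of 28 replication genes fell, and Socs2, Cish and Il2rb differ in sign between the concentrations.

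Of 24 early activation genes, which the antigen receptor induces, 3 rose and 3 fell, with a median of -0.01, shares near those of all genes (11.5% and 12.0%). No gene of this list rose and 2 fell with the second title number as a term. Irf4, a transcription factor whose level follows receptor signal strength, had 78.2, 95.5 and 79.5 CPM at 72 h, against 212, 169 and 213 CPM at 48 h (-1.23 ± 0.16, adjusted p = 6.42e-08). Nr4a3, a nuclear receptor of the same early programme, fell by 1.68 ± 0.32 on the log2 scale. Nr4a1, its relative, had 77.5, 104 and 117 CPM at 72 h, against 102, 93.6 and 84.7 CPM at 48 h (0.09 ± 0.20, adjusted p = 0.785). Cd69, an early surface marker, and Myc, a growth regulator, also overlapped between the times (0.18 ± 0.22 and 0.26 ± 0.22, adjusted p = 0.600 and 0.417). Of 13 effector and lineage transcription factor genes 1 rose and 3 fell (2 rises without high_48h replicate 3). Gata3, a factor of helper type 2 cells that all CD4 T cells need, had 132, 116 and 148 CPM at 72 h, against 38.6, 50.4 and 73.3 CPM at 48 h (1.26 ± 0.20, adjusted p = 4.46e-06). Zbtb32, a zinc finger repressor, had 2.35, 1.72 and 6.47 CPM at 72 h, against 22.7, 15.2 and 13.7 CPM at 48 h (-2.26 ± 0.41, adjusted p = 3.94e-05). Of 8 helper cytokine genes tested 3 fell and 0 rose, and of 12 chemokine and receptor genes 2 rose and 2 fell (1 fall without high_48h replicate 3 or high_72h replicate 1). Ccr6, a receptor for CCL20, had 0.782, 3.44 and 2.77 CPM at 72 h, against 18.5, 11.5 and 15.5 CPM at 48 h (-2.68 ± 0.41, adjusted p = 2.37e-06).

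Genes of resting and recirculating T cells rose (11.5% of all genes rose). Of 22 naive and central memory genes 14 rose and 1 fell (median 0.87; 0 falls without high_48h replicate 1, high_72h replicate 1 or high_72h replicate 3), and of 22 FOXO target and quiescence genes 13 rose and 0 fell (median 0.82, and 8 rises with the second title number as a term); the lists share genes. S1pr1, the receptor by which T cells leave lymphoid organs, had 113, 132 and 137 CPM at 72 h, against 16.8, 23.1 and 35.1 CPM at 48 h (2.29 ± 0.23, adjusted p = 8.09e-11). Klf2, the transcription factor that drives S1pr1, had 207, 297 and 229 CPM at 72 h, against 75.6, 64.4 and 78.3 CPM at 48 h (1.75 ± 0.20, adjusted p = 3.04e-09). Both lay higher in every library at 72 h. Cd27, a costimulatory receptor, rose by 1.31 ± 0.17, and Tcf7, which encodes the factor TCF1 of self-renewing T cells, by 1.13 ± 0.21. Sesn1, a stress-induced inhibitor of mTORC1 signalling counted among the p53 targets, rose by 1.26 ± 0.19. All 8 Gimap genes, a family of GTPases of resting lymphocytes, were tested, and 7 rose and 0 fell (median 0.83), among them Gimap7 (0.90 ± 0.17, adjusted p = 6.95e-05).

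Other receptor genes of resting T cells were less clear. Il7r, the IL-7 receptor of resting T cells, had 35.2, 12.9 and 23.1 CPM at 72 h, against 0, 6.08 and 13.2 CPM at 48 h, which overlap slightly (1.69 ± 0.44, adjusted p = 0.00365). It no longer passed without high_72h replicate 1 (1.27), in the fits of the compared groups alone without and with the replicate block (1.73 and 1.84) or with the second title number as a term (1.36). Ccr7, the chemokine receptor for entry into lymph nodes, had 690, 689 and 744 CPM at 72 h, against 742, 580 and 657 CPM at 48 h (0.10 ± 0.12, adjusted p = 0.597).

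Many interferon-induced genes rose. Of 24 tested genes of the type I interferon response 13 rose and 0 fell (median 1.33, where 11.5% of all genes rose). For 16 of them every library at 72 h lay above every library at 48 h (18.0% of all genes). Irf7, the factor that amplifies type I interferon, had 110, 107 and 96.2 CPM at 72 h, against 25.2, 19.4 and 18.7 CPM at 48 h (2.33 ± 0.25, adjusted p = 5.28e-10). Rtp4, a chaperone of membrane receptors induced by interferon, had 79.0, 57.7 and 53.6 CPM at 72 h, against 2.52, 9.72 and 8.19 CPM at 48 h (3.13 ± 0.36, adjusted p = 5.47e-09). Oas3, which senses double-stranded RNA, had 65.7, 80.9 and 71.2 CPM at 72 h, against 17.6, 18.2 and 16.4 CPM at 48 h (2.06 ± 0.31, adjusted p = 1.75e-06). In all 3 genes, chosen as those of the list with the smallest adjusted p, the times lie far apart. With the second title number as a term 8 of the 24 rose, at a median of 1.10. The motif named the interferon-stimulated response element, bound by IRF and STAT complexes and searched on both strands as GAAA, any 2 bases and GAAA, was in 10 of the 16 list genes with a RefSeq window (62.5%), against 3.49% of all windows and 3.09% of those of tested genes. Oas3, a named gene of the list that holds the motif, is shown with its 1 match in capitals in the 250 bases before the start (chr5:120777660-120777909, - strand, GRCm38.p6).
Oas3: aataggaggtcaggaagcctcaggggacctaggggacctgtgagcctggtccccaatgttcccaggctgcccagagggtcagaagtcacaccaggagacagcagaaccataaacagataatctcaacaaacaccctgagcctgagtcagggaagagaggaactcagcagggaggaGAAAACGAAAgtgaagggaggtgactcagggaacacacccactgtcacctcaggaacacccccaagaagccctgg

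Of 17 genes of MHC class I presentation 6 rose and 1, Calr, fell (11.5% of all genes rose and 12.0% fell), with a median of 0.34. Without high_48h replicate 1 there were 2 falls. H2-K1, a classical class I heavy chain, had 1899, 2302 and 2007 CPM at 72 h, against 893, 1090 and 1044 CPM at 48 h (1.04 ± 0.14, adjusted p = 1.21e-07). H2-T23, the class I molecule Qa-1, had 485, 559 and 482 CPM at 72 h, against 116, 104 and 86.0 CPM at 48 h (2.33 ± 0.23, adjusted p = 2.11e-09). Class I genes are close relatives of one another, so reads can be shared among them. Of 11 interferon-induced GTPase genes 3 rose and 1 fell (5 rises without high_48h replicate 3, 0 falls without high_48h replicate 2 or high_72h replicate 1, and 1 rise with the second title number as a term), with Irgm1, which acts in defence against intracellular microbes, rising by 1.37 ± 0.25. Cd74, the invariant chain of MHC class II, which B cells also express, had 6.26, 5.16 and 9.25 CPM at 72 h, against 21.0, 22.5 and 13.2 CPM at 48 h (-1.43 ± 0.35, adjusted p = 0.00182), a call that ended with the second title number as a term (-1.17).

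**Figure D3:**
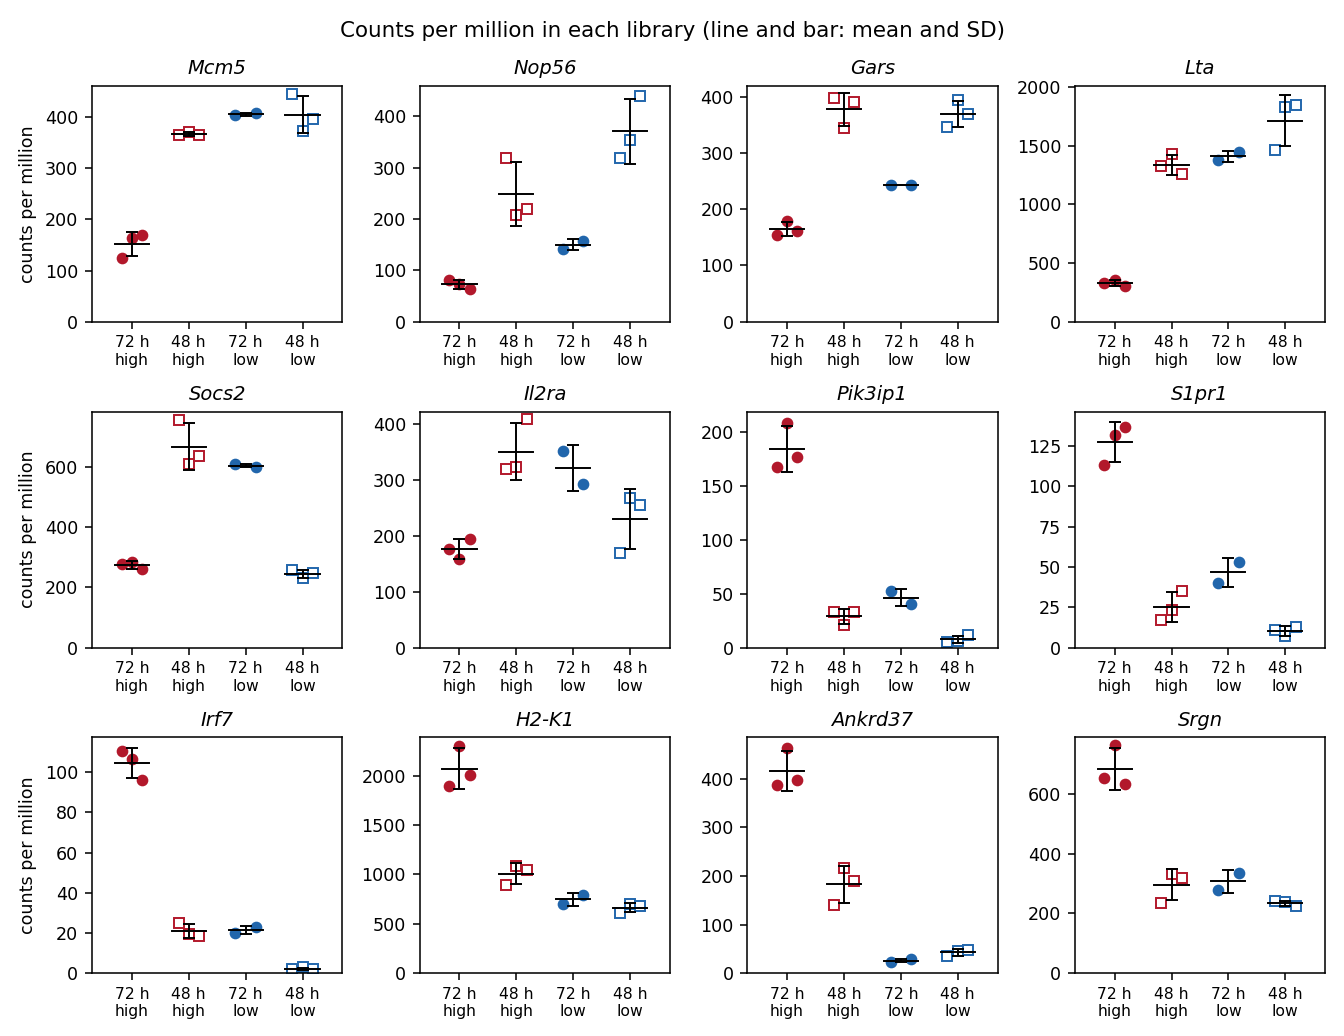
Level in CPM (y axis, from 0) of 12 genes in each library, with 72 h left of 48 h and the high concentration (red) left of the low (blue). Points are libraries (circles 72 h, squares 48 h), lines and bars are the mean and SD. In each of the 12 panels the red circles and red squares do not overlap: Mcm5, Nop56, Gars, Lta, Socs2 and Il2ra are lower at 72 h and the other 6 genes higher. The panels were picked from the named genes, so the lack of overlap is no separate test.

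Genes of cell death changed in both directions (11.5% of all genes rose and 12.0% fell). Of 14 BCL2 family genes 5 rose and 2 fell (median 0.38; 3 rises without high_72h replicate 2, 1 fall without high_48h replicate 2, and 1 rise and 1 fall with the second title number as a term), and of 17 p53 targets 5 rose and 4 fell (2 falls with that term). Bcl2l1, which encodes the survival protein BCL-XL, had 72.8, 84.3 and 93.4 CPM at 72 h, against 232, 207 and 175 CPM at 48 h (-1.29 ± 0.19, adjusted p = 6.36e-07). Bbc3, which encodes PUMA, a BH3-only death protein, had 77.5, 112 and 107 CPM at 72 h, against 64.6, 51.0 and 29.6 CPM at 48 h (1.06 ± 0.24, adjusted p = 0.000688). The groups lie apart in both genes, which were chosen by their small adjusted p. Bcl2l11, which encodes BIM, another such protein, rose by 1.20 ± 0.29 (adjusted p = 0.00148), a call that ended with the second title number as a term (0.96). Fas, the death receptor, had 64.9, 48.2 and 44.4 CPM at 72 h, against 10.1, 14.6 and 27.3 CPM at 48 h (1.53 ± 0.33, adjusted p = 0.000395). Cdkn1a, which encodes the cell-cycle inhibitor p21, fell by 0.78 ± 0.20 on the log2 scale (adjusted p = 0.00271), and did not pass in the fit of the compared groups alone with the replicate block (-0.73). Of 20 TNF ligand and receptor genes 3 rose and 4 fell, against 11.5% and 12.0% of all genes.

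The genes of glucose use and hypoxia that passed were higher at 72 h (11.5% of all genes rose and 12.0% fell). Of 15 genes of glucose and lactate transport and glycolysis 4 rose and 0 fell (median -0.07; 1 fall without high_48h replicate 3), and of 20 hypoxia-induced genes 5 rose and 0 fell (median 0.35, and 3 rises with the second title number as a term). Aldoa, aldolase A, had 3458, 2934 and 3401 CPM at 72 h, against 1880, 2127 and 1854 CPM at 48 h (0.74 ± 0.14, adjusted p = 4.79e-05). Pgk1, phosphoglycerate kinase, had 128, 71.4 and 117 CPM at 72 h, against 35.3, 32.8 and 36.9 CPM at 48 h (1.59 ± 0.25, adjusted p = 2.36e-06), and both glycolytic genes have retrogene copies that can share reads. Ankrd37, a target of hypoxia-inducible factors, had 387, 463 and 397 CPM at 72 h, against 141, 217 and 190 CPM at 48 h (1.18 ± 0.18, adjusted p = 2.00e-06). Pdk1, a kinase that inhibits pyruvate dehydrogenase, rose by 1.41 ± 0.29, and Nrn1, neuritin, by 0.99 ± 0.18. Of 26 genes of cholesterol and fatty acid synthesis 3 rose and 2 fell (median 0.29). Without high_72h replicate 3 the counts were 1 and 0, without high_72h replicate 1 they were 2 and 0, without any other 1 library 1 fell, and with the second title number as a term 0 rose and 1 fell. Of 11 metallothionein and zinc genes 0 rose and 2 fell (1 rise without high_72h replicate 2, and 1 fall with that term).

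Many genes of granules and adhesion rose (11.5% of all genes rose). Of 10 cytotoxic granule genes 5 rose and 0 fell (median 1.10, and 3 rises with the second title number as a term). Srgn, serglycin, the proteoglycan that packs granules, had 653, 762.4 and 632 CPM at 72 h, against 236, 331 and 320 CPM at 48 h (1.20 ± 0.18, adjusted p = 1.46e-06). Gzmb, granzyme B, had 28.9, 35.3 and 17.6 CPM at 72 h, against 2.52, 4.86 and 4.55 CPM at 48 h (2.71 ± 0.52, adjusted p = 7.82e-05), and no longer passed with the second title number as a term (2.41). Ctsw, the protease cathepsin W, had 10.2, 7.74 and 11.1 CPM at 72 h, against 1.68, 1.22 and 0.910 CPM at 48 h (2.93 ± 0.54, adjusted p = 4.25e-05). Of 16 annexin, galectin and S100 genes 11 rose and 0 fell (median 0.55, and 7 rises with that term), among them Lgals1, galectin 1 (1.06 ± 0.18, adjusted p = 1.22e-05). Of 9 integrin genes 5 rose and 1 fell. Itgb3, the integrin beta 3 chain, had 185, 186 and 196 CPM at 72 h, against 47.9, 52.3 and 55.5 CPM at 48 h (1.86 ± 0.18, adjusted p = 4.32e-11).

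Itga7, an integrin alpha chain that binds laminin, had 195, 199 and 192 CPM at 72 h, against 84.0, 51.0 and 38.2 CPM at 48 h (1.79 ± 0.27, adjusted p = 2.08e-06). It was at most 1.77 CPM in every library of the low concentration at these times. Of 9 coinhibitory receptor and related genes 4 rose and 0 fell (2 rises without high_72h replicate 1 and 2 with the second title number as a term), including Cd5, an inhibitor of receptor signalling (0.86 ± 0.15, adjusted p = 1.30e-05), and Lgals3, galectin 3 (1.69 ± 0.38, adjusted p = 0.000753). Of 28 lysosome and autophagy genes 7 rose and 0 fell and 21 did not pass (median 0.15). Without high_72h replicate 2, high_48h replicate 2 or high_48h replicate 3, 4 rose, and 1 fell in the last of these, against 11.5% of all genes that rose in the fit of all libraries. Npc2, which carries cholesterol out of lysosomes, rose by 2.01 ± 0.37.

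The same interval in cultures begun at the low concentration is set beside that at the high. Second title numbers at the low were 2, 1 and 1 at 48 h and 2 and 2 at 72 h. At the high they went from 2 to 1, so the number is not balanced between the intervals. In the difference of the intervals its part cannot be fully told apart from that of concentration. At the low concentration, 2386 genes passed (25.8%), 1314 higher (14.2%) and 1072 lower (11.6%), with no library shared between the intervals. Of the 1060 genes that rose at the high concentration, 427 also rose at the low (40.3% of them and 32.5% of those that rose at the low), 44 fell (4.15% and 4.10%) and 589 did not pass (55.6%). Of the 1110 that fell, 349 also fell at the low (31.4% and 32.6%), 79 rose (7.12% and 6.01%) and 682 did not pass (61.4%). The change over the interval itself differed for 1161 genes (12.6%), with 432 differences positive (4.68%) and 729 negative (7.89%). With the second title number as a term, 296 genes did. Without low_72h replicate 1 or 2, which leaves 1 library in that group, 556 or 668 genes differed between the intervals and 1273 or 1492 passed at the low concentration. Without low_48h replicate 2, 771 genes differed between the intervals.

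**Figure D4:**
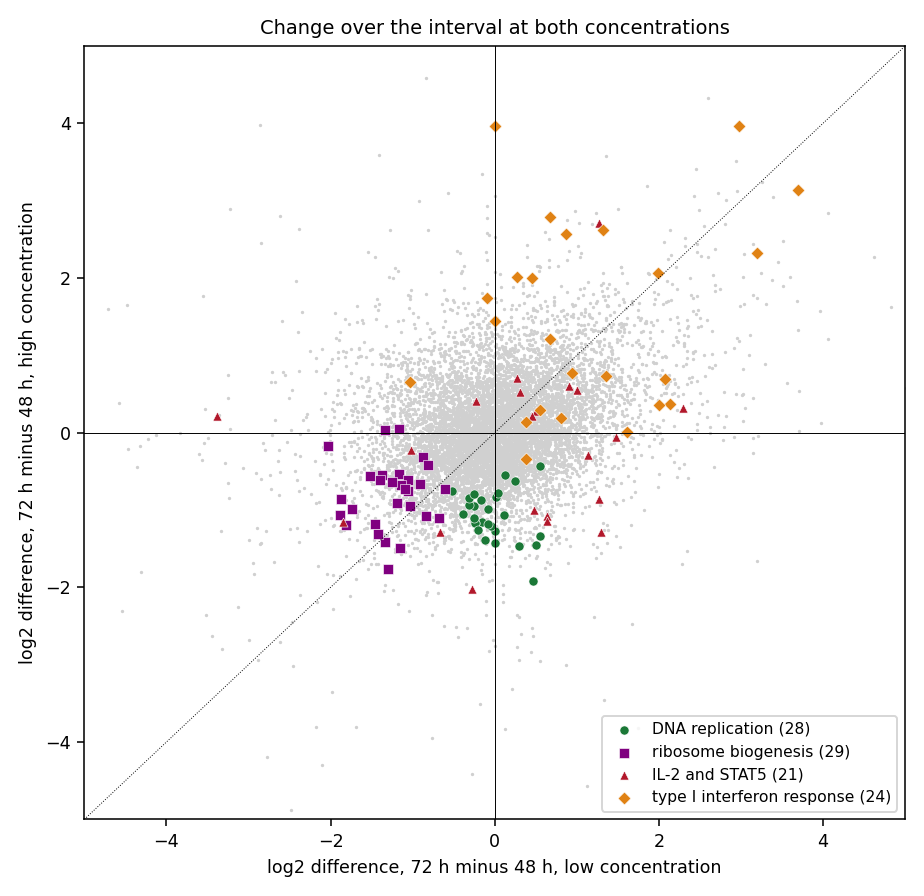
Log2 difference between 72 and 48 h at the high concentration (y axis) against that at the low concentration (x axis) for all genes tested (grey) and the genes of 4 lists (coloured); the dotted line marks equal change and 16 genes lie outside the axes. Replication genes lie below 0 on the y axis and around 0 on the x axis, with list medians of -1.09 and -0.09.

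Replication and mitosis genes and some IL-2 pathway genes were among those whose change differed. In the DNA replication list 2 of 28 genes rose and 1 fell at the low concentration, and 18 of 28 had a more negative change at the high (7.89% of all genes). Mcm5 had 403 and 408 CPM at 72 h, against 445, 373 and 396 CPM at 48 h at the low concentration, and its change at the high minus that at the low was -1.27 ± 0.23 (adjusted p = 9.29e-05). Mitosis genes rose at the low concentration, 11 of 24 with 0 falls (14.2% of all genes rose there). More negative changes at the high were seen in 9 of the 24, such as Plk1 (-1.92 ± 0.31, adjusted p = 1.60e-05). Socs2 had 607 and 599 CPM at 72 h, against 256, 231 and 247 CPM at 48 h at the low concentration, where it rose by 1.30 ± 0.15. The difference between the changes was -2.58 ± 0.20 (adjusted p = 6.47e-13). Cish and Il2rb rose at the low concentration by 0.63 ± 0.20 and 0.64 ± 0.20, while Il2ra did not pass there (0.48 ± 0.21, adjusted p = 0.0877), and all 3 differed between the intervals (-1.78 ± 0.27, -1.72 ± 0.27 and -1.48 ± 0.29). Il2 itself had 10.6 and 5.90 CPM at 72 h, against 116, 73.7 and 70.3 CPM at 48 h at the low concentration, and fell there by 3.38 ± 0.36 on the log2 scale.

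**Figure D5:**
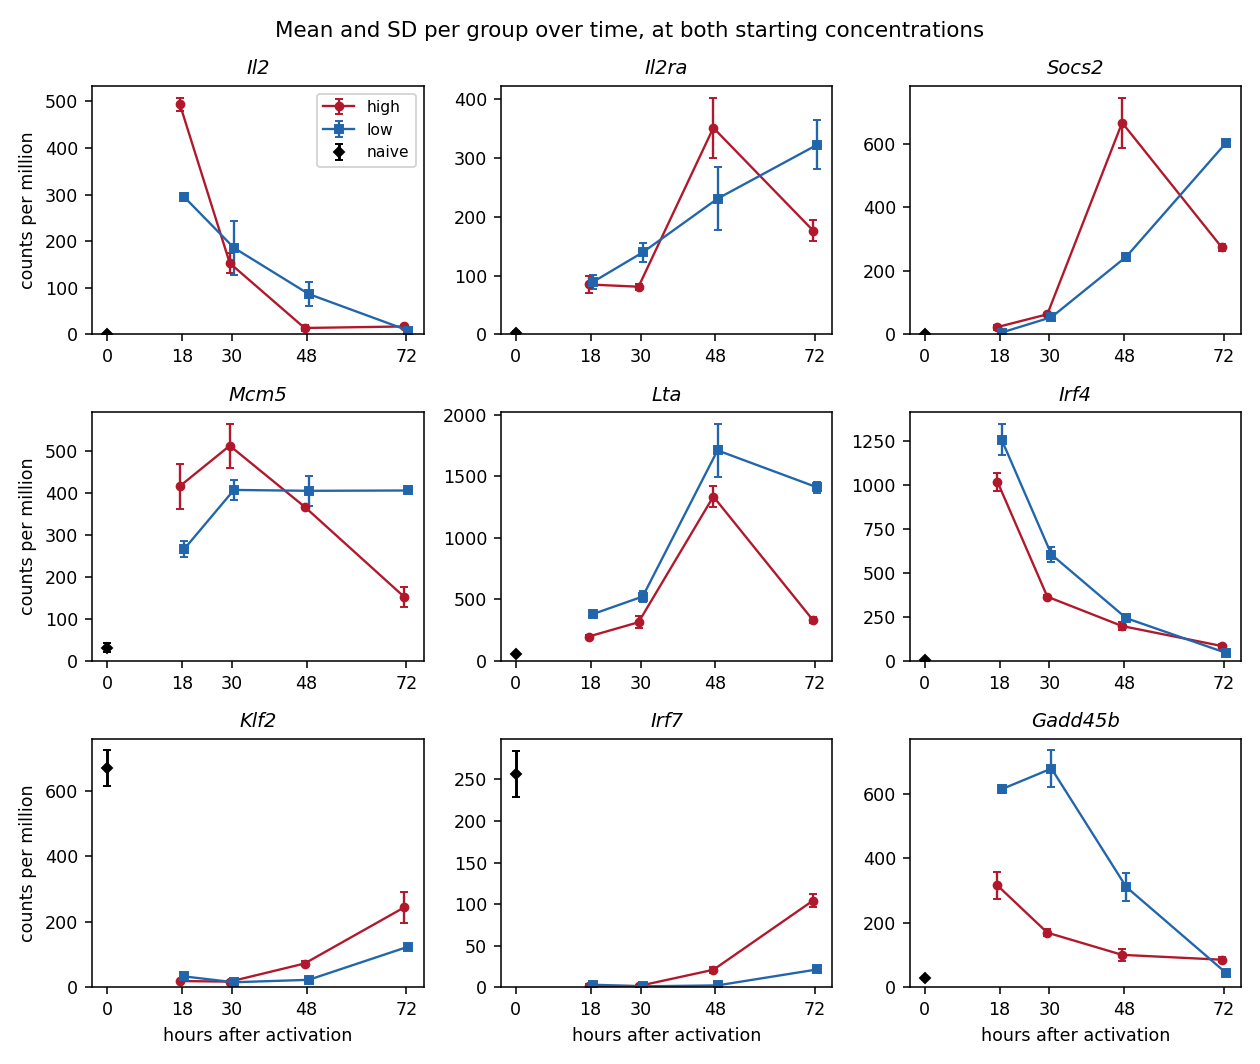
Mean level in CPM with SD (y axis, from 0) of 9 genes against hours after activation (x axis) at the high (red circles) and low (blue squares) concentrations, with unactivated naive cells at 0 h (black). Il2ra and Socs2 are highest at 48 h among the sampled times at the high concentration and at 72 h at the low.

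Over the sampled times at the high concentration, Socs2 averaged 23.4 ± 7.79, 63.6 ± 4.05, 667 ± 78.7 and 274 ± 11.9 CPM at 18, 30, 48 and 72 h (SD, n = 3 each), so the fall followed its highest sampled level. At the low concentration it averaged 6.16 ± 1.00, 54.5 ± 7.85, 245 ± 12.7 and 603 ± 5.63 CPM at the same times (SD, n = 3, and 2 at 72 h). Klf2 averaged 669 ± 55.2 CPM in naive cells and 19.2 ± 1.30, 17.4 ± 3.05, 72.8 ± 7.36 and 245 ± 46.7 CPM at 18, 30, 48 and 72 h at the high concentration. Irf7 averaged 257 ± 28.0 CPM in naive cells and 1.85 ± 1.87, 1.52 ± 1.32, 21.1 ± 3.56 and 104 ± 7.35 CPM at those times. Both genes at 72 h lay between their level in naive cells and their lowest sampled level. Second title numbers differ between these times too, with 1 at 18 and 72 h and 2 at 30 and 48 h at the high concentration.

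Other genes had a more positive change at the high concentration than at the low (4.68% of all genes). At the low, 14.2% of all genes rose and 11.6% fell. In the early activation list 1 gene rose and 12 of 24 fell at the low (median -1.24), and 9 had a more positive change at the high. Gadd45b, a stress and activation gene, had 83.7, 78.3 and 94.3 CPM at 72 h, against 122, 83.8 and 96.0 CPM at 48 h at the high concentration (-0.23 ± 0.16, adjusted p = 0.312). At the low concentration it had 43.8 and 45.4 CPM at 72 h, against 277, 293 and 361 CPM at 48 h, and the changes differed by 2.57 ± 0.24 (adjusted p = 4.96e-11). Nr4a1 and Cd69 also fell there by 1.99 ± 0.24 and 1.84 ± 0.27 on the log2 scale, with differences of 2.09 ± 0.32 and 2.02 ± 0.35. Of 32 ribosomal protein genes 0 rose and 10 fell at the low, and 14 had a more positive change at the high, among them Rps16 (1.55 ± 0.24). Ankrd37 had 23.8 and 28.3 CPM at 72 h, against 35.5, 46.6 and 48.6 CPM at 48 h at the low concentration, falling by 0.74 ± 0.26 on the log2 scale, against its rise at the high.

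Several lists changed mostly in the same direction at both concentrations. At the low, 14.2% of all genes rose and 11.6% fell. Ribosome biogenesis genes fell at the low concentration in 26 of 29 cases (median -1.19), and 5 had a less negative change at the high. FOXO target and quiescence genes rose there in 11 of 22 cases with 1 fall (median 1.04), and type I interferon genes in 9 of 24 with 1 fall (median 0.84). Pik3ip1 and S1pr1 rose there by 2.55 ± 0.28 and 2.15 ± 0.28, with differences between the intervals of 0.12 ± 0.39 and 0.15 ± 0.38, neither of which passed. Levels nonetheless stood apart: S1pr1 had 40.0 and 53.1 CPM at the low concentration at 72 h, below the 3 libraries of the high concentration at that time.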

How the data were processed

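RNA of sorted CD4 T cells was captured on poly-T beads and made into libraries of 3′ transcript ends with molecular identifiers and linear amplification by T7 polymerase, per the labels' protocols. The values are raw counts per gene symbol, 1 column per library, as the authors deposited them. Tools named by the submitters' processing notes are HTSeq 0.9.1, STAR 2.5.2b, HISAT 0.1.5, FastQC 0.11.7 and bcl2fastq 2.17.1.14, with build mm9. No source used here says which aligner gave these counts, whether identifiers were collapsed, or which annotation and strand setting applied. If reads and not molecules were counted, amplification copies add to the spread between libraries, which the tests estimate. Library pairs of a group differed by 1.98 to 11.3 times the variance of counting alone (chi-square per degree of freedom), so all 6 libraries were kept as separate. The table has 24421 symbols, 8924 of them at 0 in all 38 libraries of the experiment. The 18 libraries of the other experiment are in another table and were not used here.

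A single edgeR fit (4.0.16, under R 4.3.3) held all 38 libraries, with a coefficient for each group and TMM factors. Genes were kept by filterByExpr (minimum count 10) and tested by quasi-likelihood with robust dispersion, which left 9239 genes and 25 residual degrees of freedom (common dispersion 0.0268). The contrasts were 72 h minus 48 h at the high concentration, the same at the low, and their difference, each with Benjamini-Hochberg adjustment over all genes tested. The SE is the log2 difference over the square root of F. On simulated counts over 9135 genes for the main contrast, 66 of 100 genes changed by 1 on the log2 scale were called, 98 of 100 changed by 2, and 10 of 8935 unchanged genes (0.112%). These counts were drawn from the fitted model itself, with no effect of the second title number. Changed genes were taken only from at or above the lower quartile of mean count. The rates therefore describe the fit under its own assumptions and not the real comparison.

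The comparison, its genes and the 38 lists were chosen with earlier results of these data known. Named genes are the 8 largest rises and 8 largest falls with no overlap and expression at or above the median, up to 3 members of each list with the smallest adjusted p, a set of T-cell genes, and the 6 smallest adjusted p for the difference between intervals. Some genes that rule allows were left out after their values were seen, mostly those whose call an alternative ended, and a few genes are not reported here. Lists are described by counts and medians and were not tested. Promoter windows are the RefSeq table of build GRCm38.p6, matched by symbol. Alternatives were DESeq2 1.42.0, RLE and upper-quartile factors, factors without ribosomal protein genes, no low-count filter, the compared groups alone, a replicate block, the second title number as a term, and leaving out each library.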

Additional observations from a re-analysis of the deposited data

Results flagged for a closer look

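The change between 48 and 72 h differed between the high and the low starting concentration for 1161 genes, by the test of the difference of the intervals. Each value below is the log2 change at the high concentration minus that at the low, for the genes described above whose difference passed.

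Among cell-cycle and nuclear genes the values were -1.27 for Mcm5, -1.27 for Fen1, -1.05 for Rrm1, -1.22 for Ccne1, -2.13 for Ccnd3, -1.92 for Plk1, -1.49 for Birc5, -3.34 for Hmgn2, -1.87 for Nup93, -1.35 for Rcc1 and -2.03 for Snrpd1. Among genes of translation, chaperones and mitochondria they were 0.92 for Rps14, 1.55 for Rps16, -0.59 for Gars, 0.77 for Hspd1, -1.48 for Xbp1, -0.69 for Sdhb, -0.55 for Atp5b and -1.18 for Ndufa5. Among genes of IL-2 signalling and cytokines they were -2.58 for Socs2, -1.48 for Il2ra, -1.78 for Cish, -1.72 for Il2rb, 0.69 for Pim2, 3.61 for Il2 and -1.74 for Lta. For receptor-induced and lineage genes they were 1.18 for Irf4, 2.09 for Nr4a1, 2.02 for Cd69, 2.57 for Gadd45b and 0.97 for Gata3. Cd4 had 0.88, Thy1 -1.84 and Cd5 0.97.

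Interferon and class I genes gave 1.28 for H2-T23, 0.86 for H2-K1 and 1.44 for Irgm1, and death genes 1.84 for Bbc3 and 1.73 for Fas. Genes of glucose use and hypoxia gave 1.73 for Pgk1, 1.31 for Aldoa, 1.92 for Ankrd37 and 2.28 for Nrn1. Genes of granules and adhesion gave 3.03 for Ctsw, 0.81 for Srgn, -0.89 for Itgb3, -0.94 for Lgals1, 1.67 for Lgals3 and -1.18 for Pdlim4. With the second title number as a term, 16 of these 49 genes no longer passed, and without low_72h replicate 1 or 2, 13 or 12 did not.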

How the results depend on the processing

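The count of 2170 genes was 2105 in DESeq2, 2037 to 2174 under the other factors and without the low-count filter, 1470 with the compared groups alone (691 lower) and 1277 (605 higher, 672 lower) with the second title number as a term. Deviations of same-numbered libraries correlated at -0.22, 0.01 and -0.03, and those of differently numbered libraries at -0.21 to 0.25. With 3 libraries in a group these values cannot decide whether the replicate numbers pair the libraries. With the replicate block 2160 genes passed, and with the block in the compared groups alone 1099 (601 higher, 498 lower). On leaving out 1 of the 6 libraries, 1614 to 2092 passed. The difference between intervals passed for 296 genes with the second title number as a term and 701 with the block in the compared groups alone, and for 556 to 1512 on leaving out a library. The low interval gave 1273 to 2450 on leaving out a library. The causes were not tested, except that fewer libraries enter some fits. Depth of 1085886 to 2067509 counts per library limits calls of genes near 10 counts.

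Named genes were chosen in part by whether their calls held. The tally above for the difference between intervals therefore does not measure how often calls hold, and no other tally is given. Reversed values were all in genes that did not pass: on leaving out a library Mki67 ran from -0.40 to 0.26, Il2 from -0.0717 to 0.55, Nr4a1 from -0.0429 to 0.25 and Myc from -0.0261 to 0.42.

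List medians with the second title number as a term moved beyond the spread between libraries for CD4 identity (0.80), chemokines (0.24), cytotoxic granule (0.83), type I interferon (1.10), glycolysis (0.29), tricarboxylic acid cycle (-0.33), mitosis (-0.34), G1 cyclins (-0.13), ribosomal proteins (0.32), annexins (0.65), integrins (0.43) and Gimap genes (0.95). With the compared groups alone, without and with the block, they moved for helper cytokines (-0.0848 and -0.0811), chemokines (-0.23 and -0.24), cytotoxic granule (0.85 and 0.87), type I interferon (0.78 and 0.78), p53 targets (0.17 and 0.15), BCL2 family (0.19 and 0.15) and annexins (0.70 and 0.70), where fewer genes were tested.

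On leaving out a library, medians ran from 0.16 to 0.42 for the BCL2 family, 0.53 to 0.67 for CD4 identity, -1.12 to -1.01 for DNA replication, 0.70 to 1.03 for FOXO targets, -0.20 to 0.0555 for G1 cyclins, 0.77 to 0.85 for Gimap genes, 0.17 to 0.39 for MHC class I, -0.19 to 0.12 for chemokines, 0.20 to 0.35 for cholesterol synthesis and -0.00667 to 0.79 for coinhibitory receptors. They ran from 0.18 to 0.24 for ribosomal proteins, 0.89 to 1.73 for cytotoxic granule, -0.10 to 0.14 for glycolysis, 0.28 to 0.54 for hypoxia-induced, 0.49 to 0.74 for integrins, 0.0517 to 0.36 for lysosome, -0.87 to -0.69 for ribosome biogenesis, -0.33 to -0.16 for the tricarboxylic acid cycle and 1.12 to 1.51 for type I interferon.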
